A study of Mus musculus with 12 samples.

Results

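Of the 38942 genes and assembled loci in the deposited table, 8 were followed here: the neurotrophin receptors Ntrk2, Ntrk3 and Ngfr, the GDNF family receptor Ret with its co-receptors Gfra1, Gfra2 and Gfra3, and Bdnf, the ligand of Ntrk2. They were picked by name, each being the row whose Ensembl gene ID carries that mouse symbol, and all 8 were found. RNA was sequenced from lumbar dorsal root ganglia (DRG), which house the cell bodies of the sensory neurons of leg and lower trunk. The mice were C57BL/6J males, 6 to 12 weeks of age. Ganglia were taken at zeitgeber time (ZT, hours after lights on) 2, 8, 14 or 20, with 3 libraries at each time and 12 in all. No treatment or genetic change is named in the labels for any of these mice. The comparisons ask whether transcript levels in the ganglia follow the time of day.

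Neurotrophins and the GDNF family are growth factors that sensory neurons take up from skin, muscle and other targets during development, and that go on to set receptor and channel levels in the adult. A neurotrophin binds a Trk receptor tyrosine kinase and the shared low-affinity receptor Ngfr, whereas GDNF family ligands bind a membrane-anchored Gfra co-receptor that then engages the kinase Ret. In the ganglion the receptors mark classes of neurons: Ntrk3 marks many proprioceptors, Ntrk2 a class of low-threshold mechanoreceptors, and Ret with Gfra2 the non-peptidergic nociceptors. Ntrk2 and Ngfr are also made by non-neuronal cells of nerves and ganglia. In whole ganglia, fewer cells of a class and less RNA per cell cannot be told apart.

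These promoter sequences are shown because they belong to the ligand and receptor of the set that bind each other. The RefSeq promoter table (GRCm38.p6) had entries for 4 of the 8 genes: Ntrk2, Ngfr and Gfra1 with 1 start each and Bdnf, which uses many alternative first exons, with 7. The 250 bases before each start are given 5′ to 3′ on the gene's strand. Capitals mark CANNTG, the general E-box, and TCACGTCA, a variant of the cyclic AMP response element.
Ntrk2 (chr13:58806319-58806568, + strand): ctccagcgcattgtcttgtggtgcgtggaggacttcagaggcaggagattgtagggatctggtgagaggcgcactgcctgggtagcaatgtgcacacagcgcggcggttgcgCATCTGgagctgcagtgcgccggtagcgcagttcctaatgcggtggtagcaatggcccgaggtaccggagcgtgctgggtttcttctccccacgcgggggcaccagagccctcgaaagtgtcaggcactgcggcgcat
Bdnf, 1 of 7 starts (chr2:109692186-109692435, + strand): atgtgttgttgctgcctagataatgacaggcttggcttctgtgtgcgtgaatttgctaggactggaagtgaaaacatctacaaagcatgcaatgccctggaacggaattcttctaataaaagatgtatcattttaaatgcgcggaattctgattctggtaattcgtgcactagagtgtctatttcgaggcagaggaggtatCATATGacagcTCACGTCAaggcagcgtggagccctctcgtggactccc
The general E-box, searched on both strands, was in 9 of the 10 promoters of these genes and in 66.2% of all 32851 promoters of this length. CACGTG, the canonical E-box that clock activators bind and a special case of the general one, was in 0 of the 10 and in 6.02% of all promoters. The D-box letters TTANGTAA were in 0 of the 10 (2.06% of all) and the ROR response element in 0 of the 10 (0.177% of all). The full cyclic AMP response element TGACGTCA was in 0 of the 10 (1.55% of all). Its variant TCACGTCA was in 1 of the 10, the Bdnf promoter shown, and in 0.35% of all. A match here is only a description of letters in this window.

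Ngfr was the most abundant of the 8 transcripts and Bdnf the least, a ratio of 24 ± 3.70 (SD over 12 libraries). Levels are given as CPM, the deposited value per 1000000 of its scaled library total. The deposited values behave as coverage per length of transcript, so these levels can be set side by side between genes. The means over 12 libraries (± SD) stood at 544.4 ± 30.2 CPM for Ngfr, 325.9 ± 28.3 for Ret, 164.4 ± 6.38 for Gfra2, 77.8 ± 5.14 for Gfra3 and 62.4 ± 1.54 for Ntrk2. Below them came Gfra1 at 58.7 ± 6.12 CPM, Ntrk3 at 46.8 ± 3.97 and Bdnf at 23.3 ± 4.10. Ngfr lay above 99.2% of the 25809 genes tested and Bdnf above 75.6%. Neighbours in this order did not overlap over the 12 libraries, with 2 exceptions. Ntrk2 and Gfra1 overlapped, Ntrk2 being higher in 8 of 12 libraries, and Gfra1 overlapped Ntrk3 in range while being higher in 12 of 12.

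**Figure D1:**
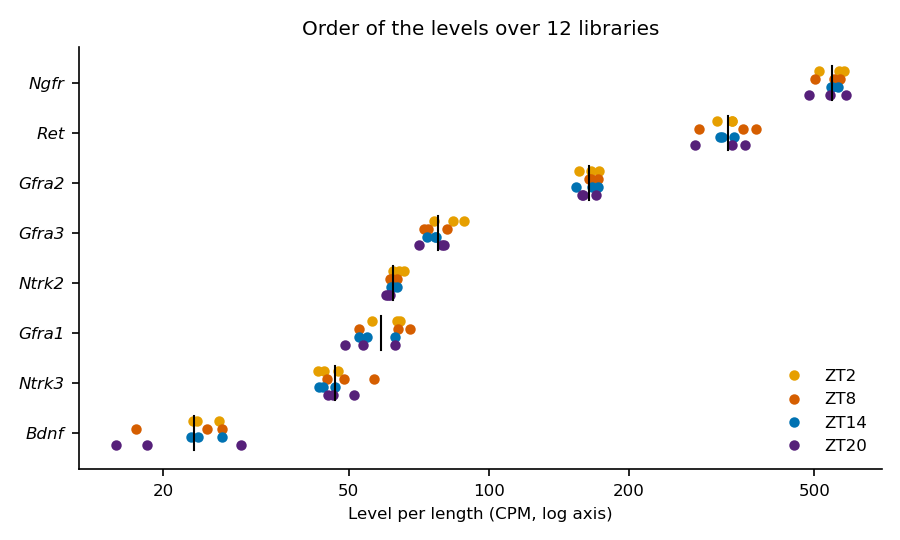
Level per length of each gene (CPM, log axis) in the 12 libraries, 1 point a library coloured by time, with the mean as a vertical line. Ngfr is highest and Bdnf lowest, and only Ntrk2 with Gfra1 and Gfra1 with Ntrk3 overlap among neighbours.

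Ngfr, the shared neurotrophin receptor that also binds unprocessed neurotrophins, had 564.8, 510.2 and 577.5 CPM at ZT2, 550.2, 567.0 and 502.4 CPM at ZT8, 544.8, 562.4 and 542.9 CPM at ZT14, and 487.5, 582.9 and 539.9 CPM at ZT20. The 4 times overlapped, and both the lowest and the highest library were taken at ZT20. Its time means differed by at most 1.03-fold. The gene lies at chr11:95568818-95587735 on the minus strand (GRCm38, GENCODE M21), with a single annotated transcript.

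Ntrk2, the Trk kinase for Bdnf (also called TrkB), had 64.0, 62.4 and 65.6 CPM at ZT2, 61.8, 63.6 and 61.3 CPM at ZT8, 61.7, 62.4 and 63.5 CPM at ZT14, and 60.2, 61.4 and 60.7 CPM at ZT20. It was the steadiest of the 8, with a coefficient of variation of 2.46% over the 12 libraries. All 3 ZT20 libraries lay below all 3 of ZT14, with means of 60.8 ± 0.587 CPM at ZT20 and 62.5 ± 0.931 at ZT14 (SD, n = 3). All 3 ZT2 libraries lay above all 3 of ZT20, with means of 64.0 ± 1.60 CPM at ZT2 and 60.8 ± 0.587 at ZT20. These 2 contrasts were the only ones of 48 in which a gene's ranges did not overlap. Among all genes tested, ranges did not overlap in 14.8% for ZT2 against ZT20 and in 11.4% for ZT20 against ZT14. For ZT2 against ZT20 the log2 difference was 0.07 ± 0.03 (SE), with an adjusted p of 0.706 in edgeR. The gene spans chr13:58806569-59133970 (plus strand) with 10 annotated transcripts, among which the table does not separate the kinase form from the truncated form.

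Ntrk3, the Trk kinase for the neurotrophin Ntf3 (also called TrkC), had 43.0, 47.5 and 44.2 CPM at ZT2, 48.8, 56.8 and 44.9 CPM at ZT8, 43.1, 44.1 and 46.8 CPM at ZT14, and 46.2, 51.4 and 45.2 CPM at ZT20. The times overlapped, and the highest value belonged to ZT8 replicate 2. ZT8 against ZT2 gave a log2 difference of 0.16 ± 0.08 (SE) with an adjusted p of 0.888 in edgeR. It spans chr7:78175959-78738012 (minus strand), and the antisense gene Gm9885 inside it held 6.44% of its total. Since the sources used here do not say whether counting used strand, reads of these overlapping genes may not be told apart. For the other genes, the antisense neighbours in the table held at most 0.838%.

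Bdnf, which sensory neurons both make and respond to, had 26.3, 23.6 and 23.2 CPM at ZT2, 24.8, 26.7 and 17.5 CPM at ZT8, 22.9, 23.8 and 26.8 CPM at ZT14, and 15.8, 29.3 and 18.5 CPM at ZT20. It varied most of the 8, with a coefficient of variation of 17.6%, and the ZT20 libraries held both its lowest and its highest value. The spread within ZT20 (SD 7.15 CPM around 21.2) exceeded the difference between any 2 time means. ZT20 against ZT14 gave a log2 difference of −0.21 ± 0.21 (SE), which ran between −0.52 without ZT20 replicate 2 and −0.04 without ZT20 replicate 1. The gene spans chr2:109674700-109727007 (plus strand).

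Ret, the signalling kinase of the GDNF family, had 333.2, 308.7 and 332.5 CPM at ZT2, 374.9, 350.8 and 282.2 CPM at ZT8, 313.3, 316.2 and 335.2 CPM at ZT14, and 277.5, 353.9 and 332.6 CPM at ZT20. Values at ZT8 and ZT20 were spread more widely (SD 48.1 and 39.4 CPM) than those at ZT2 and ZT14 (SD 13.9 and 11.9 CPM), and all times overlapped. Ret lies at chr6:118151745-118197718 on the minus strand. Its level was 5.57 ± 0.365 times that of Gfra1, 1.98 ± 0.165 times that of Gfra2 and 4.21 ± 0.480 times that of Gfra3 (SD, 12 libraries).

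Gfra2, the co-receptor that prefers neurturin, was the most abundant of the 3 and the steadiest of them. It had 165.8, 156.1 and 172.3 CPM at ZT2, 165.4, 171.1 and 163.9 CPM at ZT8, 171.9, 153.5 and 166.2 CPM at ZT14, and 158.1, 159.3 and 169.4 CPM at ZT20. Its coefficient of variation was 3.88%, and every pair of times overlapped. It lies at chr14:70890120-70979838 on the plus strand.

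Gfra3, the co-receptor for artemin found on many peptidergic nociceptors, had 76.3, 83.8 and 88.6 CPM at ZT2, 72.5, 81.5 and 74.0 CPM at ZT8, 76.9, 73.6 and 76.5 CPM at ZT14, and 80.3, 79.2 and 70.7 CPM at ZT20. ZT2 had the highest mean but overlapped every other time. ZT14 against ZT2 gave a log2 difference of −0.13 ± 0.07 (SE), with an adjusted p of 0.996 in edgeR.

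Gfra1, the co-receptor that prefers GDNF, had 63.4, 56.1 and 64.5 CPM at ZT2, 67.7, 63.9 and 52.5 CPM at ZT8, 52.6, 63.0 and 54.7 CPM at ZT14, and 49.2, 63.0 and 53.8 CPM at ZT20. All times overlapped. Its means at ZT14 (56.8 ± 5.50 CPM) and ZT20 (55.3 ± 7.03) were below those at ZT2 (61.3 ± 4.54) and ZT8 (61.4 ± 7.89), by less than the spread within times (SD, n = 3). It spans chr19:58235604-58455909 on the minus strand. Of the 3 co-receptor levels added together, Gfra1 made up 19.5% ± 1.68, Gfra2 54.7% ± 1.73 and Gfra3 25.9% ± 1.39. The share of Gfra2 was above that of the other co-receptors at every time, at 53.3% ± 0.830, 54.9% ± 1.36, 55.3% ± 2.13 and 55.1% ± 2.40 for ZT2, ZT8, ZT14 and ZT20.

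**Figure D2:**
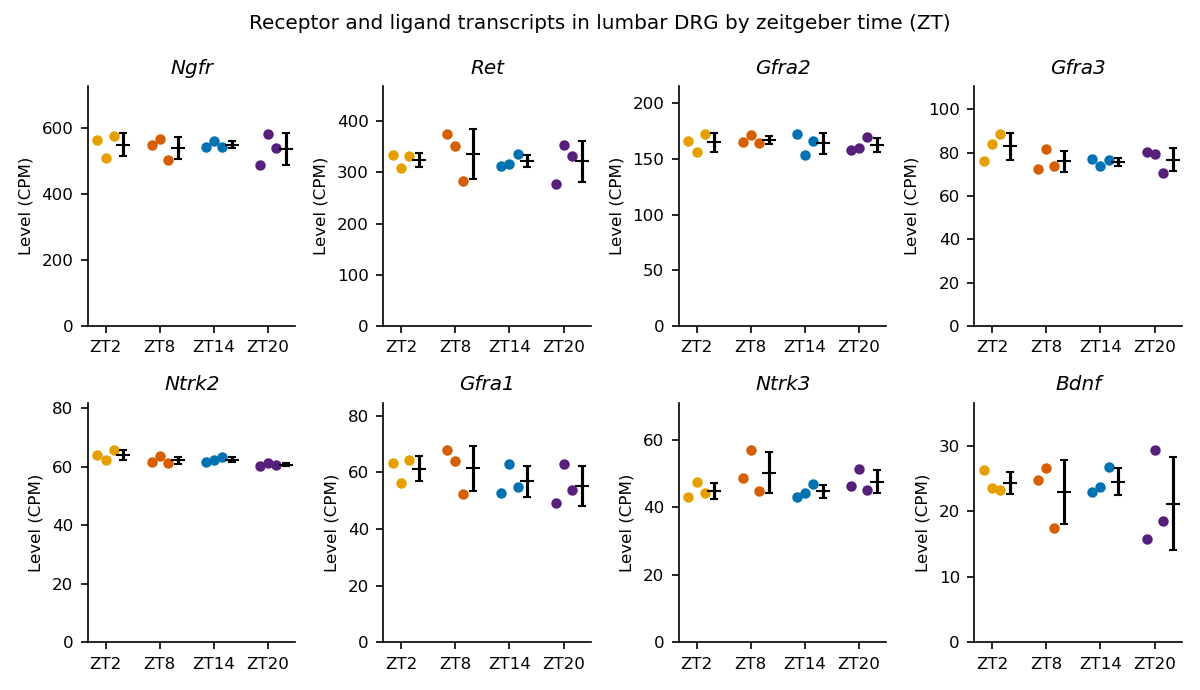
Level (CPM, axis from 0) of each gene at ZT2, ZT8, ZT14 and ZT20: coloured points are libraries, and black marks are the mean ± SD of 3. The times overlap for every gene except Ntrk2, whose ZT20 libraries lie below those of ZT14 and ZT2, and Bdnf spreads most at ZT20.

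None of the 8 transcripts passed the test for a difference among the times. edgeR's quasi-likelihood test over the 4 times called 0 of 8 at a Benjamini-Hochberg adjusted p of 0.05, against 0.0504% of all genes tested. Adjusted p-values ran from 0.898 for Ntrk3 to 1 for Ngfr, and 0 of 8 had an unadjusted p under 0.05, as did 6.19% of all genes. DESeq2 and limma also called 0 of the 8. A test of a 24-h rhythm called 0 of 8, against 0.0659% of all genes, and the adjusted p-values were 0.994 or more. The contrast of ZT2 and ZT14 with ZT8 and ZT20, a 12-h alternation, called 0 of 8, against 0% of all genes. In that test 1921 of 25809 genes had an unadjusted p under 0.05, DESeq2 called 114 and limma 0, none of them among the 8.

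The fitted 24-h amplitudes, the distance from the mean to the peak on the log2 scale, were small. They were 0.09 ± 0.06 (SE) for Gfra1, 0.07 ± 0.03 for Gfra3, 0.06 ± 0.11 for Bdnf, 0.04 ± 0.04 for Ntrk3 and 0.03 ± 0.05 for Ret. Ntrk2 and Gfra2 each had 0.02, and Ngfr 0.00. The median over the 8 was 0.04, beside 0.10 over all genes tested. A fitted amplitude is never negative, so spread between libraries raises it. The 8 each lay above 75.6% or more of all genes in level, so these medians are not like for like. The difference between them was not tested.

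Each of the 6 contrasts between times also called 0 of 8. The shares called among all genes were 0.0465% for ZT14 against ZT2, 0.0232% for ZT20 against ZT8, 0.0194% for ZT8 against ZT2, 0% for ZT14 against ZT8, 0.0426% for ZT20 against ZT14 and 0.00387% for ZT2 against ZT20. No gene of the 8 had an unadjusted p under 0.05 in any contrast, and DESeq2 and limma called 0 of them as well. For ZT14 against ZT8, where edgeR called no gene at all, 1627 of 25809 genes had an unadjusted p under 0.05, DESeq2 called 105 and limma 0. All 48 intervals included 0. The log2 differences ran from −0.21 to 0.20, and the bounds of their 95% intervals from −0.67 to 0.67, or from −0.40 to 0.40 with Bdnf left aside.

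The intervals set how large a difference these 12 libraries leave room for. The largest fold difference inside any interval was 1.11 for Ntrk2 and Gfra2, 1.14 for Ngfr, 1.22 for Ret and Gfra3, 1.27 for Ntrk3, 1.32 for Gfra1 and 1.59 for Bdnf. Differences within these bounds could not be told from 0 with 3 libraries a time. Sampling every 6 h also leaves a short pulse between times unseen.

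**Figure D3:**
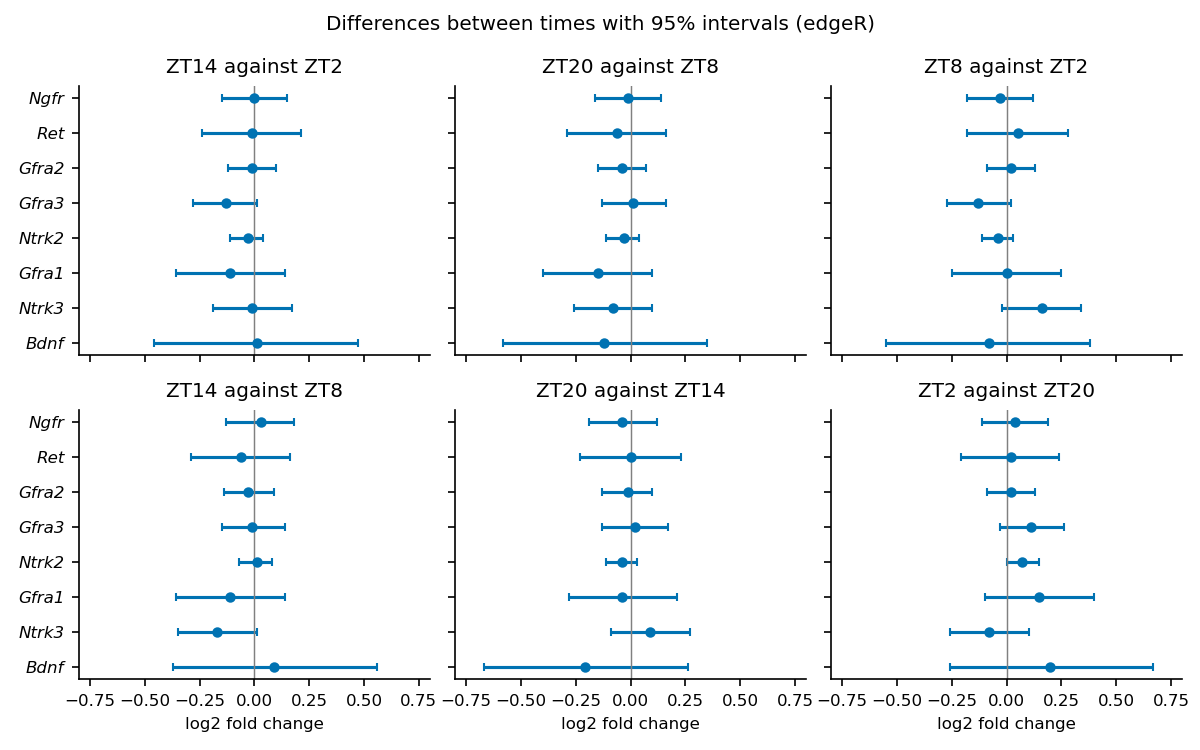
The log2 difference (points) and its 95% interval (bars) of each gene in the 6 contrasts between times, from edgeR. All 48 intervals include 0, and those of Bdnf are the widest.

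Other genes of these pathways passed none of the same tests in edgeR. Of 81 genes in 6 further lists, 77 passed the filter on low values, and edgeR called 0 of the 77 in each of the 9 tests. With an unadjusted p under 0.05 there were 8 in the test over the 4 times, 4 in the 24-h test and 10 in the 12-h alternation, where the shares over all genes were 6.19%, 5.2% and 7.44%. The median 24-h amplitude of the 77 was 0.05, beside 0.10 over all genes, a difference that was not tested.

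The ligands given here other than Bdnf were scarce in the ganglion. Ntf3, the ligand of Ntrk3, averaged 1.73 ± 0.307 CPM and Nrtn, the ligand of Gfra2, 1.61 ± 0.177 (SD, n = 12). Pspn, the ligand of Gfra4, averaged 0.698 CPM, Gdf15, a distant relative that acts in the hindbrain, 0.289, Gdnf 0.192, Artn 0.174 and Ntf5 0.057. Ntf5 did not pass the filter on low values. The 7 ligands tested, which include a listed ligand not reported here, had a median amplitude of 0.28 and 0 were called by edgeR. Spread between libraries raises a fitted amplitude, and the ligands were scarcer than the 8. Their medians are therefore not like for like, and the difference was not tested. Ntf3 had 1.89, 2.21 and 2.01 CPM at ZT2, 1.41, 1.63 and 1.15 CPM at ZT8, 1.49, 1.48 and 1.83 CPM at ZT14, and 1.95, 1.75 and 2.02 CPM at ZT20. The ZT8 libraries lay below those of ZT2 and ZT20, with an adjusted p of 0.746 in edgeR's 24-h test. Among all genes tested, ranges did not overlap in 11.7% for ZT8 against ZT2 and in 9.9% for ZT20 against ZT8.

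Gdf15 had 0.358, 0.439 and 0.303 CPM at ZT2, 0.220, 0.223 and 0.186 CPM at ZT8, 0.448, 0.463 and 0.405 CPM at ZT14, and 0.163, 0.0816 and 0.177 CPM at ZT20. All these values were very low, at 0.0816 to 0.463 CPM, and the depth behind them is only approximate. Gdf15 values at ZT14 and ZT2 were above all those at ZT8 and ZT20. In the contrasts of ZT14 or ZT2 with ZT8 or ZT20, ranges did not overlap in 11.3% to 14.8% of all genes tested. For Gdf15 the adjusted p was 0.295 in edgeR's 12-h test. DESeq2, which called 114 of 25809 genes there, called it, and in its test over the 4 times called Gdf15, Mmp9 (a metalloprotease that can cut proneurotrophins and that neutrophils carry) and Dusp6 (a phosphatase induced by ERK signalling), named because of that call, among 292 genes of all tested. Summed markers of red cells were also lower at ZT20, at 779.9 to 1230 CPM for ZT20 against 3688 to 4036 CPM for ZT14, with 1662 to 3990 CPM at ZT2 and 2213 to 2404 CPM at ZT8. At ZT8 they lay inside the ZT2 range, whereas Gdf15 lay below it, and their part in these values was not tested.

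The other lists hold genes far more abundant than the ligands, and edgeR called 0 in each. Among other receptors and partners, 13 were tested, led by Ncam1, an adhesion molecule that can bind GDNF, at 97.9 ± 3.91 CPM, Lingo1, a partner of Ngfr, at 68.8 ± 3.78, and Gfra4, the persephin co-receptor, at 34.6 ± 2.84. Among 28 adaptors, Maged1 and Bex3, which bind Ngfr, stood at 490.8 ± 11.5 and 203.2 ± 9.31 CPM, and Dok4, which binds Ret, at 362.1 ± 15.1. Of 7 proteases that process proneurotrophins, the highest were Pcsk2 at 149.3 ± 6.88, Pcsk1 at 37.5 ± 1.86 and Furin at 26.9 ± 1.23. Of 13 feedback and target genes, Vgf, a neuropeptide precursor induced by neurotrophins, stood at 190.1 ± 35 CPM, Etv5, a transcription factor downstream of Ret, at 68.2 ± 9.06, and Spred2, an inhibitor of ERK signalling, at 65.9 ± 3.13. Of 9 transcription factors of sensory neuron classes, Pou4f1 had 123.6 ± 11.8, Prdm12 116.3 ± 5.97 and Tlx3 109.6 ± 8.18 CPM.

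**Figure D4:**
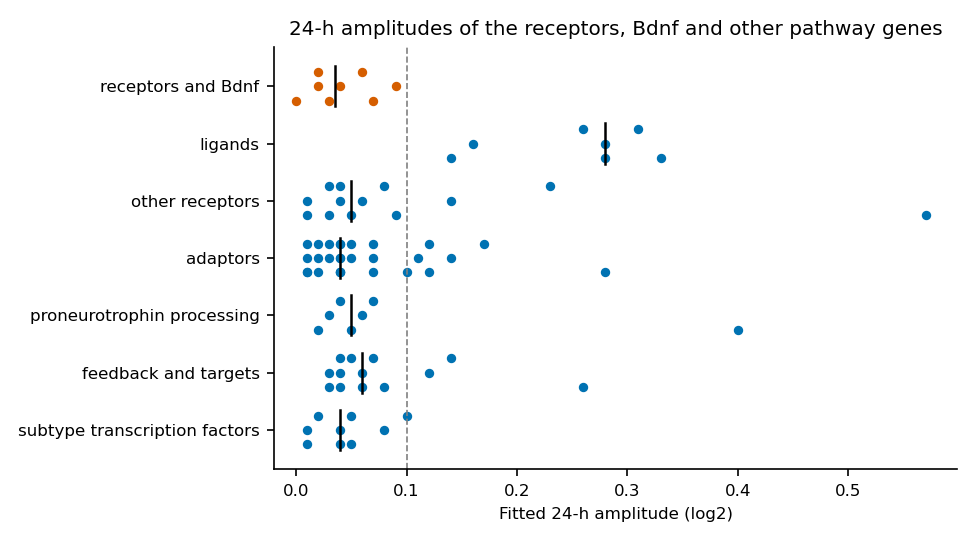
Fitted 24-h amplitude (log2 scale) of the 8 genes (orange) and of the tested genes of 6 further lists (blue), with list medians as black bars and the median of all genes as a dashed line. The 8 lie at 0.09 or less, and the ligands have a median of 0.28. The ligands were scarcer than the 8 and spread between libraries raises a fitted amplitude, so these values are not like for like.

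Some of the 8 went up and down together from library to library. Over 28 pairs, Pearson's r of log2 CPM was positive in 27, from −0.08 to 0.80, and 6 passed a permutation test (100000 resamples, two-sided, Benjamini-Hochberg over the 28). Among all pairs of 11101 protein-coding genes of at least 5 CPM in the same libraries, 50.3% had a positive r and 2.76% an r of at least 0.72, the lowest of the 6. These 6 joined Ngfr, Ret, Gfra1 and Bdnf: r was 0.80 for Ngfr with Gfra1, 0.79 for Ngfr with Ret, 0.79 for Ngfr with Bdnf, 0.79 for Ret with Gfra1 and 0.77 for Ret with Bdnf, each with an adjusted p of 0.0198. Gfra1 with Bdnf had an r of 0.72, with an adjusted p of 0.0335. Spearman's rho for these pairs ran between 0.59 and 0.82, and 0 of 28 passed by rank. With time means subtracted and libraries rearranged only within times (an exact permutation test over 1296 rearrangements), 0 of 28 passed after adjustment, although r was 0.77 to 0.89 in these 6. Without the 2 libraries farthest from the median of a pair's first gene, r was between 0.39 and 0.64. Leaving out extreme libraries narrows the range of levels and tends to lower r. The fall alone therefore does not show how far the relation rests on those libraries. Over all 12 libraries, Gfra2 and Gfra3 stood outside the group of Ngfr, Ret, Gfra1 and Bdnf, with r between −0.08 and 0.34 with each of its members.

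The libraries differed in how much skeletal muscle RNA they held, and of the 8 genes Ngfr and Ret passed a test of correlation with it. The share of all genes that would pass was not counted, so the relation is not shown to be particular to Ngfr and Ret. A muscle score, the mean log2 CPM of 10 muscle markers, ran from 1.19 in ZT20 replicate 2 to 6.14 in ZT20 replicate 1. ZT20 replicate 1 was also the highest of the 12 in summed markers of Schwann cells (8821 CPM), of fibroblasts and perineurium (743.4 CPM) and of endothelium (74.2 CPM), and in the mitochondrial share of its total (11.6%). Among neuron classes, the same library was the highest in markers of low-threshold and proprioceptive neurons (2232 CPM). It was the lowest in those of non-peptidergic nociceptors (844.9 CPM). The 10 markers, all detected, summed to 80.8 to 374.1 CPM at ZT2, 86.1 to 378.5 at ZT8, 159.6 to 462.5 at ZT14 and 28 to 951.4 at ZT20. Each time held 1 of the 4 libraries with the highest scores: ZT2 replicate 2 at 4.86, ZT8 replicate 3 at 4.78, ZT14 replicate 1 at 5.15 and ZT20 replicate 1 at 6.14. Ngfr had a Pearson r of −0.80 with this score (permutation test, adjusted p 0.02 over the 16 relations to muscle and neuron scores) and a rho of −0.78 (adjusted p 0.0589). Ret had −0.74 (adjusted p 0.046) and a rho of −0.69 (adjusted p 0.137). Gfra1 (−0.69) and Bdnf (−0.60) did not pass, at adjusted p-values of 0.0668 and 0.158, nor did Ntrk3 (−0.48), Ntrk2 (−0.30), Gfra2 (−0.14) and Gfra3 (−0.06).

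Within times, r with the muscle score was −0.89 for Ngfr, −0.82 for Gfra1 and −0.67 for Ntrk2, each with an adjusted p of 0.0494 (exact permutation test), and −0.76 for Ret, with an adjusted p of 0.0926. Without the 2 farthest libraries r was −0.64 for Ngfr, −0.60 for Ret, −0.60 for Gfra1 and −0.16 for Bdnf. Without the 4 muscle-rich libraries, r within the group was 0.64 for Ngfr with Gfra1, 0.53 for Ngfr with Bdnf, 0.44 for Gfra1 with Bdnf, 0.43 for Ret with Gfra1, 0.35 for Ret with Bdnf and 0.03 for Ngfr with Ret. In the same libraries, Gfra3 had an r of 0.73 with Ngfr, 0.37 with Bdnf, 0.35 with Gfra1 and −0.03 with Ret. Gfra2 had an r of −0.15 with Ngfr, −0.26 with Bdnf, −0.14 with Gfra1 and 0.25 with Ret. The neuron score, from 6 neuronal markers, ran only from 9.91 to 10.02 and passed with 0 of the 8. These relations to the scores were looked at after the data had been seen, with no share over all genes counted beside them. What links muscle RNA with these levels was not tested, and edgeR called 0 of the 8 at any time contrast without the 4 muscle-rich libraries or with the score as a covariate.

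**Figure D5:**
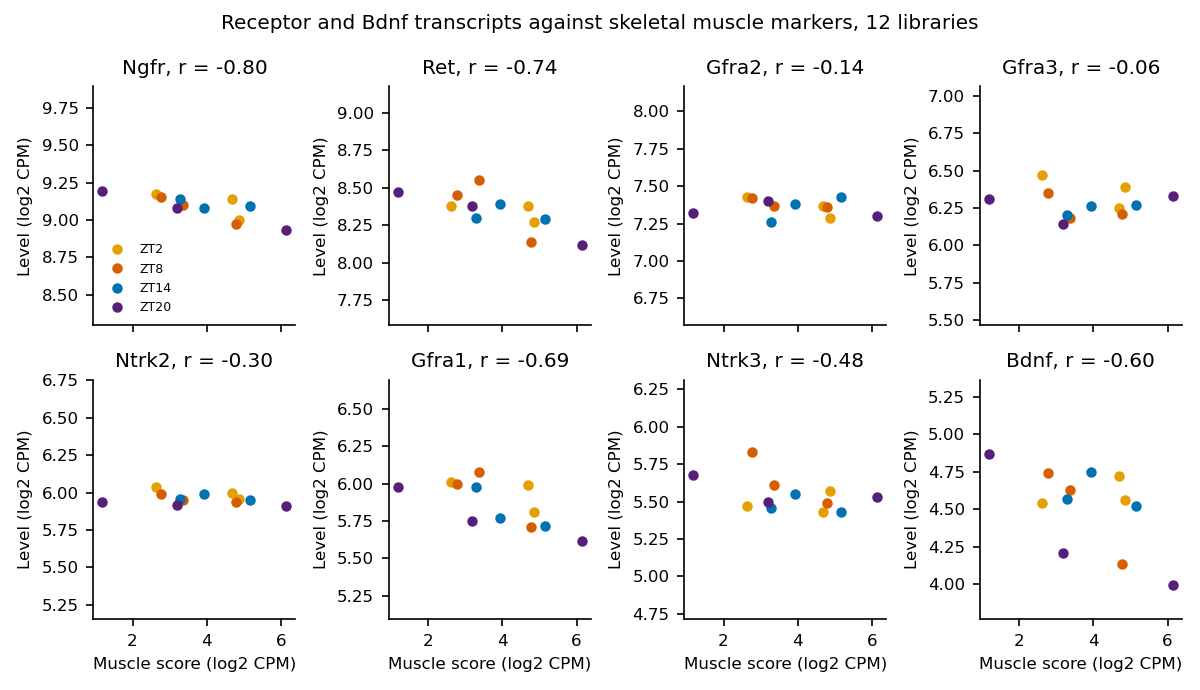
Level of each gene (log2 CPM; every panel spans the same range) against the muscle score of the library (mean log2 CPM of 10 markers), 12 libraries coloured by time, with Pearson's r. Ngfr (−0.80) and Ret (−0.74) slope downward, and Gfra2 (−0.14) and Gfra3 (−0.06) do not.

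The genes whose levels ran most nearly in parallel with each of the 8 were looked up among 11100 protein-coding genes of at least 5 CPM, by Pearson's r of log2 CPM over the 12 libraries. These are descriptions, and all points share the same 12 libraries, with their muscle content and depth. The 3 nearest to Ngfr were Unc13a (0.97), Nisch (0.95) and Plec (0.95). For Ntrk2 they were Nufip2 (0.90), Dusp16 (0.90) and March8 (0.89), and for Ntrk3 Lrrc8c (0.90), Fam177a (0.85) and Nxpe4 (0.85). For Bdnf they were Ppp4r4 (0.96), Scd1 (0.95) and Cpd (0.94). Those of Ret were Trim35 (0.94), Exoc8 (0.94) and Kctd8 (0.92), and those of Gfra1 were Nras (0.96), Ubash3b (0.95) and Erc2 (0.94). Gfra2 ran nearest to Def6 (0.89), Rspo4 (0.87) and Rnf112 (0.86). Gfra3 ran nearest to Tiam2 (0.85), Hoxa10 (0.82) and Tac1 (0.80), the last a neuropeptide precursor of peptidergic nociceptors.

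Markers of the labelled tissue were abundant. The 6 neuronal markers summed to 11239 to 12232 CPM per library, the satellite glia markers to 4464 to 6146 and the Schwann cell markers to 6411 to 8821. Apoe held most of the satellite glia sum, at 4439 ± 436.8 CPM. The others of that list averaged 397.0 (Fabp7), 368.7 (Glul), 50.1 (Kcnj10) and 7.96 CPM (Cadm2). Of 5 spinal cord markers in the table, which summed to 235.3 to 283.0 CPM, Gfap, Mog and Mobp averaged below 1 CPM and Aqp4 5.45 CPM. Slc17a7, a glutamate transporter that large sensory neurons also make, held nearly all of the sum, at 250.8 ± 13.5 CPM. Markers of the neuron classes in which the receptors are known to be found were tested over the 4 times with 0 called: 5 of peptidergic nociceptors, 6 of non-peptidergic nociceptors and 7 of low-threshold and proprioceptive neurons. None of the 7 Schwann cell markers was called, and 1 of 5 satellite glia markers was: Fabp7, a fatty acid binding protein, with 566.3 to 628.0 CPM at ZT2, 290.7 to 347.2 at ZT8, 203.2 to 241.6 at ZT14 and 435.7 to 476.5 at ZT20 (edgeR adjusted p 0.000178). Of 5 red cell markers, Alas2, the haem synthesis enzyme of red cells, was called (edgeR adjusted p 0.022). Library totals ran from 89800000 to 125000000 on the deposited scale, or roughly 24000000 to 33500000 read pairs.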

How the data were processed

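Polyadenylated RNA of lumbar DRG was sequenced as paired reads, per the labels' protocols. The submitters' processing notes name HISAT2 2.2.1, StringTie 2.1.5 and GRCm38; the step that made the counts is not stated there. The authors deposited an estimated count for each gene in each library, as a number with decimals. In each library the low values of single-transcript genes were multiplied by transcript length and divided by the most frequent of the library's larger values. That divisor was 16.4 to 17.24 over the libraries. The results pile up at 300 bases, the length of 1 read pair. The values therefore behave as coverage per length and not as read counts, and their depth is only approximate. Symbols came from GENCODE M21 by Ensembl ID.

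Estimated counts as deposited by the authors were rounded to whole numbers and fitted in edgeR 4.0.16 (R 4.3.3) with filterByExpr, TMM scaling and 1 quasi-likelihood model of the 4 times, with Benjamini-Hochberg adjustment over the 25809 genes tested and a threshold of 0.05. Unnamed assembled loci (348 rows, 0.203% to 0.231% of each total) were left out. Levels are CPM on TMM library sizes, and log2 CPM used a prior count of 2. DESeq2 1.42.0, limma 3.58.1, other scaling, filters, an approximate read scale and left-out libraries were alternatives. No pairing by replicate number was seen: 0 of 18 same-number pairs correlated over 0.1, against 1 of 36 pairs of different numbers. The main fit used no pairing, and this check cannot show that none exists. The labels do not say whether replicates are separate mice, so p-values measure only the spread between these libraries.

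The 8 genes, the other lists and the markers were chosen with earlier results of these data known. Named besides the 8 were the listed ligands (1 is not reported here), the 3 most abundant genes of each list, any listed pathway gene called by edgeR in the test over times or the 24-h test (there was none), and the 3 genes most like each of the 8. Mmp9, Dusp6 and the single marker genes were named outside this rule, after their values were seen.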

Additional observations from a re-analysis of the deposited data

How the results depend on the processing

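The count of 0 of the 8 genes called held in all 186 combinations of 9 tests with the alternatives that could be fitted, among them 12 fits without 1 library each, which gave 0 to 0. The lowest adjusted p was 0.31, for Gfra1 in ZT2 against ZT20 with the muscle score as a covariate. With a replicate block 0 of 8 were called in every test. Of the 77 other pathway genes, DESeq2 called 3 in the test over the 4 times (Mmp9, Dusp6 and Gdf15), 3 in ZT20 against ZT14 (the same 3, among 114 of all genes) and 2 in the 12-h alternation (Dusp6 and Gdf15), where edgeR called 0; the cause was not tested. Over all genes, the count called in the test over the 4 times was 292 with DESeq2, 15 with limma, 7 with the replicate block and 8 without the 4 muscle-rich libraries, against 13. In the 24-h test these counts were 162, 17, 4 and 4, against 17. Gene pairs past the threshold numbered 0 after subtracting time means, against 6; the cause was not tested. The order of the 8 levels was the same without the 4 muscle-rich libraries. It was also the same under DESeq2-style size factors, which scale whole libraries and so cannot reorder genes within a library. On the approximate read scale the order was the same too, but that scale is made from these same values and transcript lengths. It is therefore no separate check. Signs of the small log2 differences were not fixed: that of Gfra1 in ZT8 against ZT2 (0.00) was of the other sign under 12 of 21 alternatives. The values carry only an approximate depth, so no counting interval is given, and a difference inside the 95% intervals could not be told from 0 with 3 libraries a time.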
